A study of Mus musculus with 12 samples.

Results

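The matrix between liver cells holds, beside collagen, a set of glycoproteins and proteoglycans, and 40 mouse genes for these proteins were described here across 12 liver libraries. The genes were chosen by symbol from a list that was drawn up with earlier results of these data known. All 40 were found among the 25540 symbols of the deposited count table. By role they fell into 17 genes of elastic fibres and latent TGF-β binding, 11 of adhesive and matricellular proteins, 8 of proteoglycans and 4 of the basement membrane. Of these, 39 had enough counts to be tested. Mfap5, a microfibril glycoprotein, did not, with counts of 1, 0 and 0 in siSTAT3 libraries, 2, 1 and 5 in siCntrl libraries, 6, 1 and 0 in mASO STAT3 libraries, and 0, 0 and 2 in mASO Scrbl libraries.

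All libraries came from livers of BALB/c mice injected with exosomes, called iExos in the labels, and the 4 groups of 3 libraries differed by the load of these vesicles. The siSTAT3 group received iExos with, by its name, an siRNA against STAT3, and its control, siCntrl, received iExos with a control load. In the second arm the load was named mASO STAT3, and its control was named mASO Scrbl; ASO is the usual short form of antisense oligonucleotide, and the m is not explained in the labels. The study's title sets this in liver fibrosis. The labels name no fibrosis-inducing agent, age, sex, dose or time, they leave out whether the libraries of a group came from separate animals, and a group without iExos was not analysed here. P-values then measure only the spread between these libraries, which may be technical.

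In healthy liver this matrix is sparse, and in fibrosis it is laid down largely by activated hepatic stellate cells and portal fibroblasts. Elastic fibres have a core of elastin around which fibrillin microfibrils, fibulins and EMILINs assemble, and latent TGF-β binding proteins (LTBPs) tether inactive TGF-β to these microfibrils. Fibronectin, thrombospondins, tenascin and periostin link cells to matrix and are induced in wound repair. Small leucine-rich proteoglycans such as decorin and lumican bind collagen fibrils, versican forms large hydrated aggregates with hyaluronan, and nidogens with perlecan and agrin join the laminin and collagen IV networks of basement membranes.

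Library totals were 39844158 to 67791159 counts, and levels are given as CPM, counts set relative to library totals that were scaled by edgeR's TMM method, whose factors were 0.804 to 0.901 in the libraries labelled STAT3 and 1.11 to 1.27 in the controls. Stat3 mRNA does not check the labels: it averaged 109.9 ± 16.2 CPM in siSTAT3 libraries and 112 ± 7.50 CPM in siCntrl libraries, and 103 ± 13.7 CPM in mASO STAT3 libraries and 99.1 ± 8.40 CPM in mASO Scrbl libraries (SD, n = 3 each), with edgeR adjusted p of 0.867 and 0.792. Hepatocyte markers were abundant in every library, with a summed level of at least 50781 CPM. One library stood apart for the genes described here: mASO Scrbl replicate 3 was the highest of its group for 34 of the 39 tested members, against 36.9% of all tested genes. Without it, 5 of the members called lower in the mASO arm (Fbn2, Efemp2, Lum, Hspg2 and Agrn) lost the call and 2 others (Fbln5 and Efemp1) gained one, both higher.

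Most of the listed matrix glycoprotein and proteoglycan genes were lower in the livers given a STAT3 load. The list was drawn up with earlier results of these data known. Setting its counts beside all genes therefore describes the list and is no independent test. In siSTAT3 libraries 27 of the 39 tested members were lower than in siCntrl libraries, against 23.4% of all tested genes, and 0 were higher, against 22.4% (edgeR quasi-likelihood test, Benjamini-Hochberg adjusted p under 0.05 over 15720 genes, of which 45.7% passed in either direction). DESeq2, limma voom and an unadjusted p under 0.05 also gave 0 higher members in this arm. The median log2 fold change of the members was −1.33, beside −0.04 for all genes, and 23 of those called were lower by more than 2-fold. For that count by fold the share of all genes is not given here. In mASO STAT3 libraries 21 members were lower than in mASO Scrbl libraries, against 22.5% of all tested genes, and 1 was higher, against 21.3%, with a median of −0.87 beside −0.05; of all genes 43.8% passed in either direction. Without mASO Scrbl replicate 3 the same arm had 16 lower and 3 higher members and a median of −0.33, against 19.4% lower and 18.7% higher among all genes. Scaling by library totals in place of TMM gave 34 lower members with siSTAT3, against 46.2% lower and 10.5% higher among all genes, and 27 with mASO STAT3, against 50.5% lower and 9.7% higher.

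The groups did not overlap, with every STAT3 library below every control library, for 28 members in the siRNA arm, against 27.5% of all tested genes, and for 21 members in the mASO arm, against 29.6%. In both arms 20 members were called lower. The share of all genes called lower in both arms is not given here, so this count has no background beside it. Another 7 (Thbs2, Fn1, Mfap2, Ltbp1, Ltbp3, Dcn and Bgn) were called lower with siSTAT3 alone, Agrn was called lower and Tgfbi higher with mASO STAT3 alone, and 10 were called in neither arm. A call in 1 arm is not a difference between arms, which was tested by itself and is given further on. In bulk liver RNA, fewer cells of a type and less RNA per cell cannot be told apart, for any of these genes. In GENCODE M21, exons of 11 members (Aspn, Efemp2, Fbn1, Fbn2, Fn1, Ltbp2, Ltbp3, Mfap4, Prelp, Thbs3 and Tnc) overlap a gene on the other strand that is also in the count table; the library kit keeps strand, but the strand setting of the counting is not stated, and reads of the 2 genes could otherwise not be told apart.

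**Figure D1:**
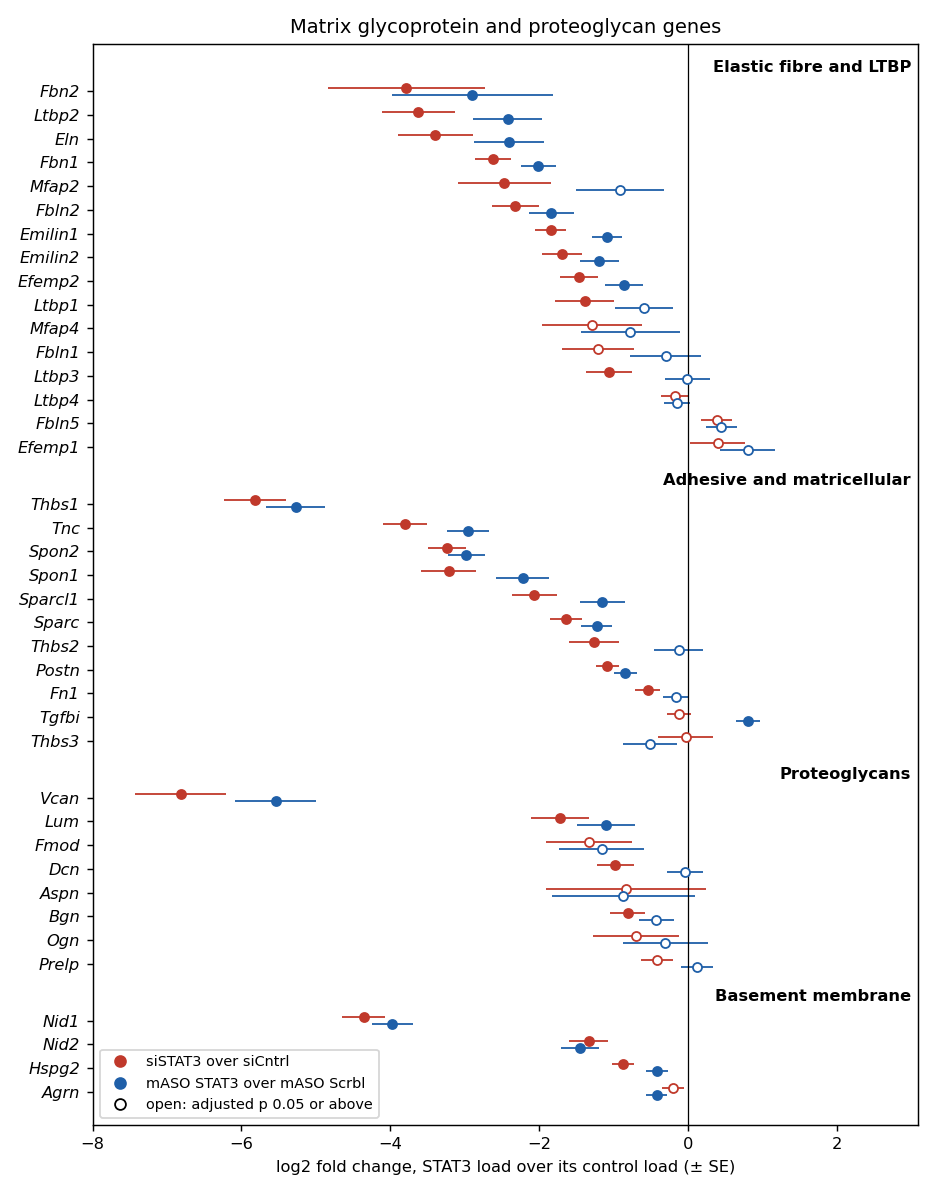
Log2 fold change (horizontal axis, with standard error) of the 39 tested genes, by role, for siSTAT3 over siCntrl in red and mASO STAT3 over mASO Scrbl in blue, with filled points at an edgeR adjusted p under 0.05. Points lie left of 0 for most genes, from −6.82 for Vcan to 0.40 for Efemp1 in the siRNA arm and from −5.54 for Vcan to 0.81 for Efemp1 and Tgfbi in the mASO arm.

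By role, in the siRNA arm 11 of 16 tested elastic fibre and LTBP genes, 9 of 11 adhesive and matricellular genes, 4 of 8 proteoglycan genes and 3 of 4 basement membrane genes were lower, with median log2 fold changes of −1.58, −1.64, −0.90 and −1.10. With mASO STAT3, 8, 7, 2 and 4 genes of these classes were lower, with medians of −0.89, −1.15, −0.65 and −0.93; for proteoglycans this is 25%, near the 22.5% of all genes. Without mASO Scrbl replicate 3 the 4 medians were −0.38, −0.84, −0.04 and −0.83, and 6 elastic fibre and LTBP genes were lower and 2 higher. The count for the basement membrane is 2 without mASO Scrbl replicate 3 or without mASO STAT3 replicate 1, and the count for proteoglycans is 1 without mASO Scrbl replicate 3 and 4 without mASO Scrbl replicate 2.

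**Figure D2:**
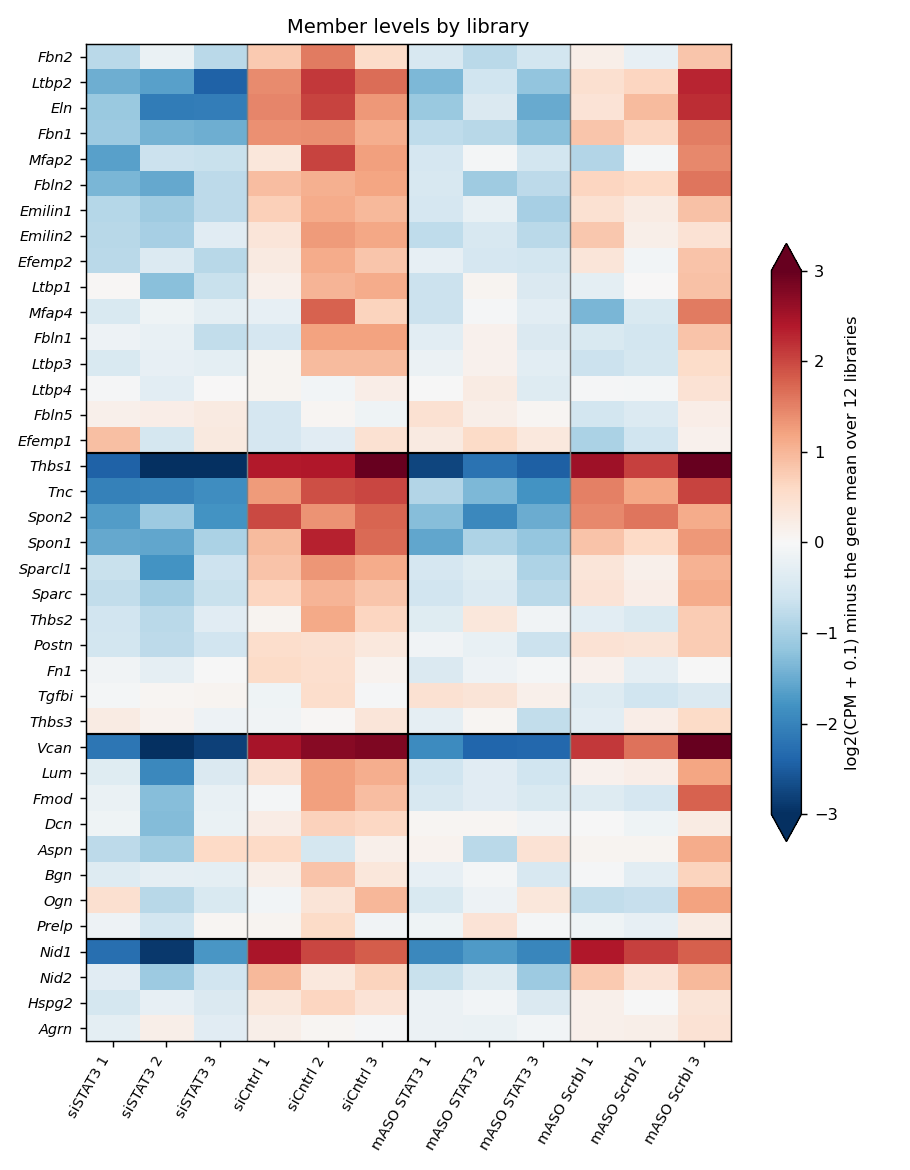
Level of each tested gene (rows, by role) in each library (columns), as log2(CPM + 0.1) minus the gene's mean over the 12 libraries, red above and blue below that mean. Both control groups are mostly red and both STAT3 groups mostly blue, and within the controls mASO Scrbl 3 is the deepest red of its group for most rows.

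Promoters are shown for 5 genes: from each role a member with a large fall in both arms, namely Ltbp2 (elastic fibre), Tnc (matricellular), Vcan (proteoglycan) and Nid1 (basement membrane), and Tgfbi, the member called higher in the mASO arm. Each is the 250 bases before the first listed start of the gene, from RefSeq on GRCm38.p6, written 5′ to 3′ on the gene's strand. Capitals mark a match to 1 of 4 motifs searched on both strands: the STAT site TTCNNNGAA, the AP-1 site TGANTCA, the TEAD site GGAATG and, as the fourth, the TATA box with the letters TATAAA. STAT and TEAD letters can overlap in part, which occurred in no member, and TATA letters of both strands can overlap each other, as in Ogn. The windows lie at chr12:84876492-84876741 (minus strand) for Ltbp2, chr4:64047016-64047265 (minus) for Tnc, chr13:89742513-89742762 (minus) for Vcan, chr13:13437352-13437601 (plus) for Nid1 and chr13:56609336-56609585 (plus) for Tgfbi.
Ltbp2: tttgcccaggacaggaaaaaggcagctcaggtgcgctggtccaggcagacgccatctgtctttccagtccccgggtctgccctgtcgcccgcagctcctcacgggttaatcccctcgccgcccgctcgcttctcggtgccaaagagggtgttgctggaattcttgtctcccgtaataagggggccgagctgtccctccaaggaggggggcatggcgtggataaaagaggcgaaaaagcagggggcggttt
Tnc: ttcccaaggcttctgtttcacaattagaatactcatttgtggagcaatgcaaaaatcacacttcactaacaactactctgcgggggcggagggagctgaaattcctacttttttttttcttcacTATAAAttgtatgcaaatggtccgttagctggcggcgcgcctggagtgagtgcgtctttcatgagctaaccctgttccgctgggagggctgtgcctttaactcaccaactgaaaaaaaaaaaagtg
Vcan: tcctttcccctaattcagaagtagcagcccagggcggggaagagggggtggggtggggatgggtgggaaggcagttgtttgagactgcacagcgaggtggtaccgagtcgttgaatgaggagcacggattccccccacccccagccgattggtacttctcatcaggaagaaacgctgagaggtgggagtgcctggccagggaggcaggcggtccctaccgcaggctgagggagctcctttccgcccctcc
Nid1: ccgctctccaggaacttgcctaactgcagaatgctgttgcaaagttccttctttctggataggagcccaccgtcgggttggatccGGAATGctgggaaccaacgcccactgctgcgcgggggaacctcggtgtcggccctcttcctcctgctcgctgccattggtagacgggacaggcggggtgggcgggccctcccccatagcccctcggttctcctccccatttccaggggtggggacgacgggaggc
Tgfbi: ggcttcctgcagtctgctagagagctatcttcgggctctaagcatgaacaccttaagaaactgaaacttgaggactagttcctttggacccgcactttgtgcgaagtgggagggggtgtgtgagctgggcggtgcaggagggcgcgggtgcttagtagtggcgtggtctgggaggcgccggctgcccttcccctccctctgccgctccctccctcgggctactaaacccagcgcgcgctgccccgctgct

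Of the 40 members, 28 were matched in the promoter table. Only the first listed start of each gene was searched, and some members, among them Tnc, Agrn and Efemp2, have more than 1. The STAT letters were in 0 of these 28 windows, against 7.18% of all 27025 promoter windows of the same length. The AP-1 letters were in 1 (Efemp1), or 3.57%, against 6.87%, and the TEAD letters in 2 (Nid1 and Ogn), or 7.14%, against 12.6%. The TATA letters were in 4 (Tnc, Thbs2, Ogn and Aspn), or 14.3%, against 13% of all windows. Among the matched members called lower in both arms, of which there were 12, the STAT and AP-1 letters were in 0, and the TEAD and TATA letters in 1 each, or 8.33%. A match describes letters, not a bound site, and a window without one says nothing of sites elsewhere.

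Among the elastic fibre genes, the fibrillins and elastin were well below their controls. Fbn1, the main fibrillin of adult microfibrils, had 4.62, 3.65 and 3.56 CPM in siSTAT3 libraries, against 25.9, 26.1 and 21.2 CPM in siCntrl libraries, and 5.78, 5.53 and 4.11 CPM in mASO STAT3 libraries, against 17.8, 15.2 and 29.0 CPM in mASO Scrbl libraries. Every STAT3 library lay below every control library of its arm. The log2 fold changes were −2.62 ± 0.24 (SE, edgeR adjusted p = 2.01e-06) with siSTAT3 and −2.01 ± 0.23 (edgeR adjusted p = 1.51e-05) with mASO STAT3.

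Eln encodes tropoelastin, the elastic core. It stood at 1.73, 0.823 and 0.829 CPM in siSTAT3 libraries, against 10.8, 15.8 and 9.49 CPM in siCntrl libraries, a log2 fold change of −3.39 ± 0.50 (edgeR adjusted p = 1.52e-04). It stood in the mASO arm at 1.70, 2.79 and 1.27 CPM with STAT3, against 5.10, 7.45 and 17.9 CPM with Scrbl, a log2 fold change of −2.40 ± 0.47 (edgeR adjusted p = 0.00130). Neither pair of groups overlapped.

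Fbn2, a fibrillin best known from embryonic microfibrils, was close to the detection limit, with counts of 0, 2 and 0 in siSTAT3 libraries, against 15, 29 and 11 in siCntrl libraries. Counts in the mASO arm were 1, 0 and 1 with STAT3, against 8, 4 and 17 with Scrbl. Relative to depth, Fbn2 counts were rarer in the pooled siSTAT3 than in the pooled siCntrl libraries by a factor of 15.4 (95% counting interval 4.07 to 130.5), and rarer in mASO STAT3 than in mASO Scrbl libraries by a factor of 8.43 (2.13 to 72.9); these intervals cover counting error only. The edgeR adjusted p was 0.00981 for siSTAT3 and 0.0441 for mASO STAT3. The fitted log2 fold change of −3.78 ± 1.06 in the siRNA arm became −7.01 without siSTAT3 replicate 2, the 1 library of that group with any count. The mASO call rests on few reads: the adjusted p lay between 0.0133 and 0.161 over the alternatives tried, and was above 0.05 with DESeq2 (0.0678), with limma voom (0.0616), with the replicate number as a block (0.0661), with no filter on low counts and with 7 single libraries left out, those other than siCntrl 2, mASO Scrbl 2 and any siSTAT3 library.

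Of the 4 latent TGF-β binding proteins, 3 fell with siSTAT3 and 1 with mASO STAT3. Ltbp2, which binds fibrillin but not latent TGF-β, had 1.70, 1.52 and 0.829 CPM in siSTAT3 libraries, against 13.3, 21.5 and 15.7 CPM in siCntrl libraries (log2 fold change −3.62 ± 0.49, edgeR adjusted p = 9.25e-05). In the mASO arm it had 1.87, 3.21 and 2.09 CPM with STAT3, against 6.81, 7.70 and 24.0 CPM with Scrbl (−2.42 ± 0.46, edgeR adjusted p = 0.00111), and without mASO Scrbl replicate 3 its log2 fold change was −1.60 (edgeR adjusted p = 0.00115). Ltbp3 had 5.69, 6.53 and 6.36 CPM in siSTAT3 libraries, against 8.23, 15.3 and 15.2 CPM in siCntrl libraries, without overlap (−1.06 ± 0.31, edgeR adjusted p = 0.0132). Ltbp3 values overlapped in the mASO arm, at 6.89, 8.54 and 6.22 CPM with STAT3 and 4.99, 5.36 and 11.4 CPM with Scrbl, and the log2 fold change was −0.01 ± 0.31. Ltbp1 fell in the siRNA arm (−1.39 ± 0.39, edgeR adjusted p = 0.0114) and had −0.59 ± 0.39 in the mASO arm (edgeR adjusted p = 0.237). Ltbp4, at 25.6 to 32.0 CPM in siSTAT3 libraries and 29.99 to 36.6 CPM in siCntrl libraries, was called in neither arm (−0.18 ± 0.18 and −0.15 ± 0.18).

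Of the proteins that build the fibre, Efemp2 (fibulin-4, which brings lysyl oxidase to tropoelastin) had 5.69, 7.48 and 5.56 CPM in siSTAT3 libraries, against 12.01, 21.9 and 17.7 CPM in siCntrl libraries (−1.46 ± 0.26, edgeR adjusted p = 4.44e-04). Efemp2 had 8.46, 7.03 and 6.80 CPM in the mASO arm with STAT3, against 13.0, 9.36 and 18.1 CPM with Scrbl (−0.86 ± 0.25, edgeR adjusted p = 0.0138, range over alternatives 4.89e-04 to 0.0779). The highest of that range came without mASO Scrbl replicate 3, and the call was also lost without mASO STAT3 replicate 3 (0.0518). Emilin1 and Emilin2, glycoproteins at the surface of elastic fibres, fell in both arms, by 1.84 and 1.69 with siSTAT3 and by 1.09 and 1.19 with mASO STAT3 on the log2 scale. Fbln2 fell by 2.32 with siSTAT3 and 1.84 with mASO STAT3, while Mfap2, a small microfibril protein, fell by 2.46 ± 0.62 with siSTAT3 (edgeR adjusted p = 0.00577) and had −0.91 ± 0.59 in the mASO arm (edgeR adjusted p = 0.230).

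A few elastic fibre genes did not follow. Fbln5, a fibulin that binds elastin and integrins, had 10.5, 10.8 and 11.4 CPM in siSTAT3 libraries, all above the 6.66, 9.73 and 8.65 CPM of siCntrl libraries, but its log2 fold change of 0.39 ± 0.21 was not called (edgeR adjusted p = 0.149). Its mASO arm values were 12.9, 10.6 and 9.82 CPM with STAT3 and 6.43, 7.02 and 10.9 CPM with Scrbl (0.45 ± 0.21, edgeR adjusted p = 0.0966, range over alternatives 0.0123 to 0.647). Efemp1 (fibulin-3) had a log2 fold change of 0.40 ± 0.37 in the siRNA arm and 0.81 ± 0.37 in the mASO arm (edgeR adjusted p = 0.0918 in the mASO arm, range 0.0297 to 0.606). Without mASO Scrbl replicate 3 both genes were called higher in the mASO arm, and under scaling by library totals Fbln5 was below 0 in both arms and Efemp1 in the siRNA arm. Fbln1 had −1.21 ± 0.49 in the siRNA arm (edgeR adjusted p = 0.0565, range 0.00867 to 0.188) and Mfap4 had −1.28 ± 0.67 (edgeR adjusted p = 0.141, range 0.0304 to 0.524); both were called lower there without mASO Scrbl replicate 3, and Fbln1 also without siCntrl replicate 1.

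Among adhesive and matricellular genes, Thbs1 had the largest change. Thbs1 encodes thrombospondin-1, a matricellular glycoprotein that can release TGF-β from its latent form. It had 0.863, 0.514 and 0.491 CPM in siSTAT3 libraries, against 26.5, 27.3 and 54.1 CPM in siCntrl libraries, and 0.664, 1.01 and 0.845 CPM in mASO STAT3 libraries, against 29.95, 21.3 and 47.0 CPM in mASO Scrbl libraries. The lowest control library was more than an order of magnitude above the highest STAT3 library of its arm. The log2 fold changes were −5.81 ± 0.42 (edgeR adjusted p = 4.33e-07) with siSTAT3 and −5.27 ± 0.40 (edgeR adjusted p = 7.04e-07) with mASO STAT3.

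For the other thrombospondins the measured log2 fold changes lay closer to 0. Thbs2 had 5.59, 4.73 and 6.51 CPM in siSTAT3 libraries, against 8.82, 18.4 and 13.1 CPM in siCntrl libraries (−1.26 ± 0.34, edgeR adjusted p = 0.00870), while mASO STAT3 libraries at 6.45, 10.5 and 7.67 CPM overlapped mASO Scrbl libraries at 6.64, 6.02 and 14.1 CPM (−0.12 ± 0.33, edgeR adjusted p = 0.791). Thbs3, a pentameric thrombospondin, was near 1 CPM in every group, between 0.563 and 1.52 CPM over the 12 libraries, with log2 fold changes of −0.03 ± 0.36 and −0.51 ± 0.37 and no call.

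Tnc encodes tenascin-C, a hexameric glycoprotein that is scarce in adult tissue and induced in injury. It had 1.97, 2.01 and 2.24 CPM in siSTAT3 libraries, against 20.6, 32.2 and 33.9 CPM in siCntrl libraries (−3.80 ± 0.30, edgeR adjusted p = 5.25e-07), and 4.50, 3.21 and 2.33 CPM in mASO STAT3 libraries, against 24.0, 18.9 and 34.6 CPM in mASO Scrbl libraries (−2.95 ± 0.28, edgeR adjusted p = 2.91e-06). All STAT3 libraries were far below all controls. The spondins, secreted F-spondin family proteins, changed by a like amount: Spon2 had log2 fold changes of −3.24 ± 0.25 with siSTAT3 and −2.98 ± 0.25 with mASO STAT3, and Spon1 had −3.22 ± 0.37 with siSTAT3 and −2.22 ± 0.36 with mASO STAT3.

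Sparc (osteonectin, a collagen-binding matricellular protein) was one of the most abundant members after Fn1. It had 105, 87.7 and 112 CPM in siSTAT3 libraries, against 275, 360.5 and 315 CPM in siCntrl libraries, and 118, 132 and 101 CPM in mASO STAT3 libraries, against 234, 204 and 382 CPM in mASO Scrbl libraries. Without overlap in either arm, the log2 fold changes were −1.64 ± 0.21 (edgeR adjusted p = 3.95e-05) and −1.22 ± 0.21 (edgeR adjusted p = 4.00e-04). Its relative Sparcl1 (hevin) fell by 2.06 with siSTAT3 and 1.15 with mASO STAT3 on the log2 scale. Postn (periostin) changed less, at 20.6, 17.5 and 20.2 CPM in siSTAT3 libraries, against 43.5, 42.0 and 38.0 CPM in siCntrl libraries, and 28.3, 25.7 and 19.4 CPM in mASO STAT3 libraries, against 41.0, 39.3 and 51.3 CPM in mASO Scrbl libraries. The replicates lay close together and the calls were clear, at −1.08 ± 0.16 (edgeR adjusted p = 9.50e-05) and −0.84 ± 0.16 (edgeR adjusted p = 6.68e-04).

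Fn1, which encodes fibronectin, was the most abundant member. Hepatocytes make it as plasma fibronectin, and matrix-producing cells make it as well. It had 1427, 1267 and 1509 CPM in siSTAT3 libraries, against 2288, 2167 and 1661 CPM in siCntrl libraries. The groups did not overlap, but the log2 fold change was −0.54 ± 0.17 (edgeR adjusted p = 0.0191). This call was lost without siCntrl replicate 1 (0.0711), siCntrl replicate 2 (0.0525) or siSTAT3 replicate 2 (0.0637), and over all alternatives the adjusted p lay between 2.44e-04 and 0.0711. With 1137, 1371 and 1481 CPM in mASO STAT3 libraries, against 1670.5, 1265 and 1529.5 CPM in mASO Scrbl libraries, the mASO groups overlapped (−0.16 ± 0.17, edgeR adjusted p = 0.468), although scaling by library totals gave a call there, at −0.74.

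Fn1 made up a larger part of the members' summed level in both STAT3 groups than in their controls. Its share of the summed member CPM was 65.6%, 67.3% and 66.2% in siSTAT3 libraries, against 57.4%, 50.9% and 47.6% in siCntrl libraries, and 57.1%, 59.5% and 66.8% in mASO STAT3 libraries, against 52.9%, 49.5% and 44.3% in mASO Scrbl libraries. The mean share was 66.3 ± 0.861% with siSTAT3 against 52.0 ± 5.01% with siCntrl, and 61.1 ± 5.02% with mASO STAT3 against 48.9 ± 4.33% with mASO Scrbl (SD, n = 3 each). Neither arm overlapped, and the exact two-sided permutation test gave p = 0.1 in each, the smallest value that 3 against 3 allows. The sum of all members was 1884 to 2279 CPM in siSTAT3 libraries, against 3490 to 4256 CPM in siCntrl libraries, and 1990 to 2304 CPM in mASO STAT3 libraries, against 2557 to 3454 CPM in mASO Scrbl libraries. Without Fn1 it was 617 to 771 CPM in siSTAT3 libraries, against 1696 to 2089 CPM in siCntrl libraries, and 737 to 933 CPM in mASO STAT3 libraries, against 1293 to 1924 CPM in mASO Scrbl libraries.

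Tgfbi (a TGF-β-induced protein that binds collagen and integrins) was the 1 member called higher in an arm. It had 60.4, 57.5 and 48.5 CPM in mASO STAT3 libraries, against 33.8, 29.0 and 32.4 CPM in mASO Scrbl libraries, without overlap (0.81 ± 0.16, edgeR adjusted p = 0.00118). In the siRNA arm it had 42.6, 45.5 and 46.2 CPM with siSTAT3, against 40.2, 63.0 and 43.1 CPM with siCntrl, which overlap (−0.12 ± 0.16, edgeR adjusted p = 0.559). The mASO call depends on scaling: by library totals the log2 fold change was 0.23 (edgeR adjusted p = 0.303; range over alternatives 2.44e-05 to 0.303), and Tgfbi was then called lower in the siRNA arm, at −0.64. Library totals move the median of all genes by −0.50 in the siRNA arm and −0.58 in the mASO arm, to −0.53 and −0.63. The difference between the arms was 0.93 ± 0.23, with an unadjusted p of 0.00113 and an edgeR adjusted p of 0.530.

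**Figure D3:**
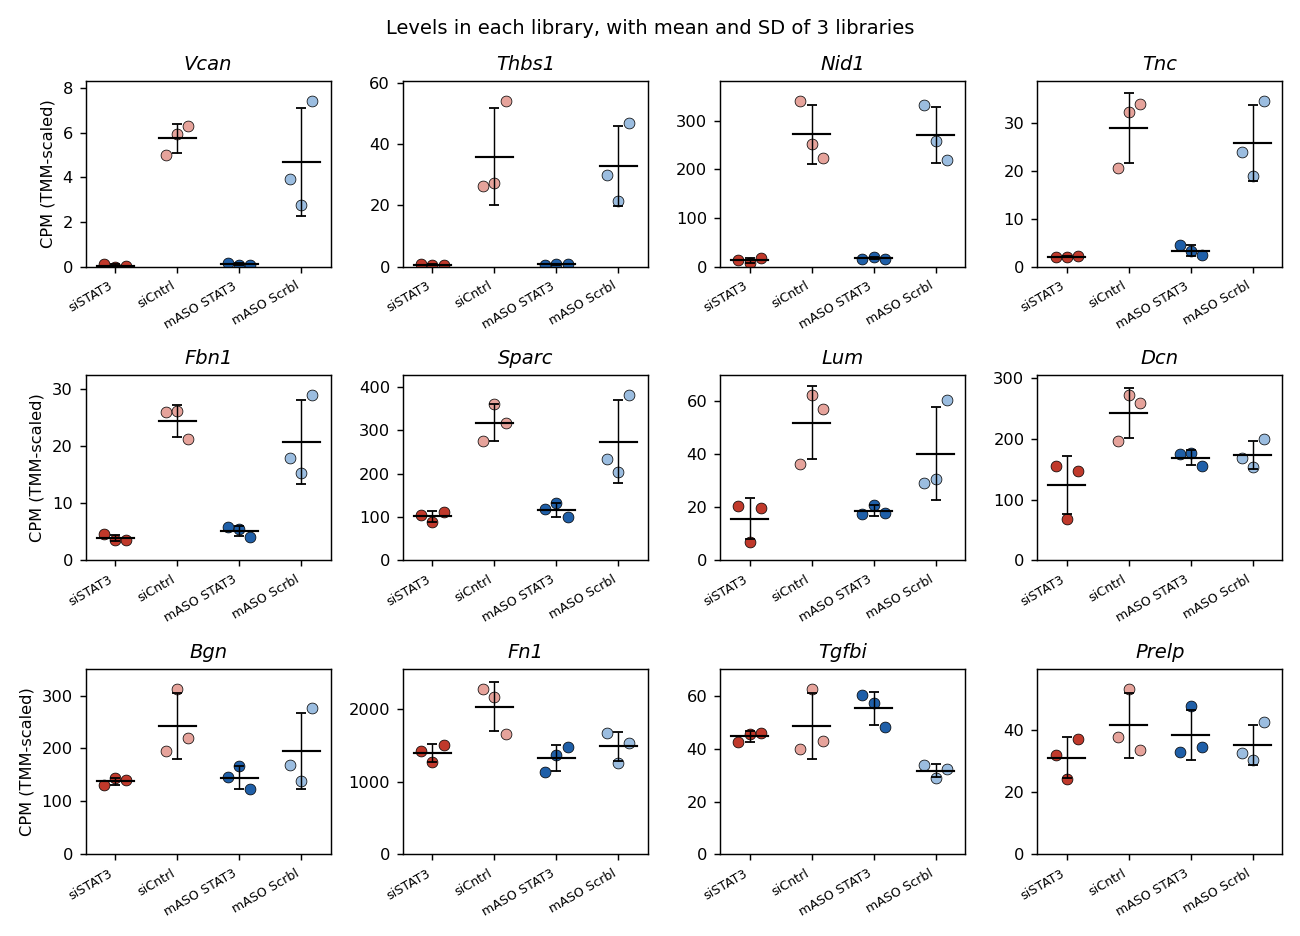
Level in CPM (vertical axis, TMM-scaled, a linear scale of its own for each gene starting at 0) of 12 genes in each library, with the mean and SD of 3 libraries per group. Vcan, Thbs1, Nid1, Tnc, Fbn1 and Sparc separate the STAT3 groups from both controls, Dcn, Bgn and Fn1 separate siSTAT3 from siCntrl while the mASO groups overlap, and Tgfbi is highest in mASO STAT3 libraries on average, at 55.5 CPM.

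Of the proteoglycans, Vcan, the gene of versican, changed most. Its counts were 5, 0 and 1 in siSTAT3 libraries, against 377, 414 and 438 in siCntrl libraries, and 6, 4 and 4 in mASO STAT3 libraries, against 322, 228 and 600 in mASO Scrbl libraries. The levels were 0.103, 0 and 0.0307 CPM in siSTAT3 libraries, against 5.02, 5.94 and 6.29 CPM in siCntrl libraries, and 0.148, 0.0760 and 0.0805 CPM in mASO STAT3 libraries, against 3.91, 2.76 and 7.43 CPM in mASO Scrbl libraries. The STAT3 libraries were close to the detection limit and the controls were not. The fitted log2 fold changes were −6.82 ± 0.61 (edgeR adjusted p = 1.59e-06) and −5.54 ± 0.55 (edgeR adjusted p = 3.53e-06).

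The small leucine-rich proteoglycans (SLRPs) had log2 fold changes closer to 0 than Vcan. Lum (lumican) had 20.5, 6.87 and 19.7 CPM in siSTAT3 libraries, against 36.1, 62.2 and 56.7 CPM in siCntrl libraries (−1.72 ± 0.39, edgeR adjusted p = 0.00398). In the mASO arm it had 17.5, 21.0 and 17.7 CPM with STAT3, against 29.3, 30.7 and 60.2 CPM with Scrbl (−1.10 ± 0.39, edgeR adjusted p = 0.0378). Although these groups did not overlap, the call was lost without mASO Scrbl replicate 3 (−0.68, edgeR adjusted p = 0.170). It was also lost without siCntrl replicate 3, without any 1 mASO STAT3 library, with the replicate number as a block (0.0515) and with no filter on low counts, with a range of 0.00419 to 0.170.

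Dcn (decorin, which also binds TGF-β) and Bgn (biglycan) were the most abundant SLRPs. Dcn had 155, 68.4 and 148 CPM in siSTAT3 libraries, against 196, 273 and 259.7 CPM in siCntrl libraries (−0.97 ± 0.25, edgeR adjusted p = 0.00588), while in the mASO arm 175, 177 and 156 CPM with STAT3 overlapped 168, 154 and 199.8 CPM with Scrbl (−0.04 ± 0.24, edgeR adjusted p = 0.912). Bgn had 131, 143 and 140.3 CPM in siSTAT3 libraries, against 195, 313 and 219 CPM in siCntrl libraries (−0.81 ± 0.23, edgeR adjusted p = 0.0121, range over alternatives 9.18e-04 to 0.0624), a call lost without siCntrl replicate 2. In the mASO arm Bgn had 145, 166 and 124 CPM with STAT3 and 169, 139 and 276 CPM with Scrbl (−0.42 ± 0.23, edgeR adjusted p = 0.157, range 0.00515 to 0.753), and it was called lower without mASO Scrbl replicate 2, at −0.62.

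The other SLRPs gave no call in either arm. Prelp, which anchors basement membranes to connective tissue, had 32.0, 24.2 and 37.2 CPM in siSTAT3 libraries and 37.6, 53.4 and 33.5 CPM in siCntrl libraries, which overlap (−0.41 ± 0.22). Fmod (fibromodulin), at 1.003 to 2.22 CPM in siSTAT3 libraries and 2.48 to 6.13 CPM in siCntrl libraries, had −1.33 ± 0.57 (edgeR adjusted p = 0.0762, range 0.00953 to 0.233) without overlap. Fmod was called lower in the siRNA arm without siCntrl replicate 1 or mASO Scrbl replicate 3 and by DESeq2, and in the mASO arm without mASO Scrbl replicate 2. Ogn (osteoglycin) had −0.70 ± 0.58 and −0.30 ± 0.57, with a wide spread between replicates, such as 50, 52 and 212 counts in mASO Scrbl libraries. Aspn (asporin) had 0 to 28 counts in any library, and differences of the size measured, −0.83 ± 1.07 and −0.87 ± 0.96, were not detectable at this depth.

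Nid1, which encodes nidogen-1, stood out in the basement membrane group. Nidogen-1 bridges the laminin and collagen IV networks. It had 13.0, 8.31 and 18.5 CPM in siSTAT3 libraries, against 341, 252 and 223 CPM in siCntrl libraries, and 16.3, 19.3 and 16.1 CPM in mASO STAT3 libraries, against 333, 259 and 219 CPM in mASO Scrbl libraries. Both STAT3 groups sat at a similar low level and both control groups at a similar high one, without overlap between them in either arm. The log2 fold changes were −4.36 ± 0.29 (edgeR adjusted p = 1.87e-07) and −3.97 ± 0.28 (edgeR adjusted p = 3.12e-07), and the difference between arms was 0.39 ± 0.36.

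The paralog Nid2 was far less abundant, at 4.42, 2.60 and 3.75 CPM in siSTAT3 libraries, against 11.1, 7.01 and 9.01 CPM in siCntrl libraries, and 3.52, 4.24 and 2.58 CPM in mASO STAT3 libraries, against 9.71, 7.50 and 11.04 CPM in mASO Scrbl libraries. It fell in both arms, by 1.33 ± 0.26 and 1.45 ± 0.26 on the log2 scale (edgeR adjusted p = 9.76e-04 and 5.29e-04). Hspg2 (perlecan, a heparan sulfate proteoglycan of basement membranes) had 31.0, 37.9 and 33.4 CPM in siSTAT3 libraries, against 57.2, 70.0 and 59.8 CPM in siCntrl libraries (−0.87 ± 0.15, edgeR adjusted p = 2.96e-04). In the mASO arm it had 39.8, 42.2 and 33.0 CPM with STAT3, against 49.9, 44.3 and 58.8 CPM with Scrbl (−0.41 ± 0.14, edgeR adjusted p = 0.0327, range 2.20e-04 to 0.139). Agrn (agrin) had 40.2, 39.6 and 43.0 CPM in mASO STAT3 libraries, against 50.9, 51.8 and 61.6 CPM in mASO Scrbl libraries (−0.42 ± 0.14, edgeR adjusted p = 0.0293, range 6.16e-05 to 0.115), and overlapped in the siRNA arm (−0.20 ± 0.14, edgeR adjusted p = 0.275). Without mASO Scrbl replicate 3 the mASO calls of Hspg2 and Agrn were lost, at −0.30 (edgeR adjusted p = 0.139) and −0.33 (edgeR adjusted p = 0.115). The Hspg2 call was also lost without siCntrl 3, mASO STAT3 1 or 3 or mASO Scrbl 1, and the Agrn call without mASO STAT3 1 or 2. Without siSTAT3 replicate 2 Agrn was called lower in the siRNA arm as well, at −0.38.

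Levels were also divided by the length of the union of each gene's annotated exons. That union can be longer than the transcripts expressed, so this compares genes only roughly and their order is approximate. On this scale Fn1 led every group, at 119.9 CPM per kb in siSTAT3, 174 in siCntrl, 114 in mASO STAT3 and 127 in mASO Scrbl libraries on average. Sparc came next in all 4 groups, at 26.8 CPM per kb in siSTAT3 libraries, against 83.7 in siCntrl libraries, and 30.9 in mASO STAT3 libraries, against 72.1 in mASO Scrbl libraries. Nid1 averaged 1.91 CPM per kb in siSTAT3 libraries, against 39.2 in siCntrl libraries, and 2.49 in mASO STAT3 libraries, against 38.96 in mASO Scrbl libraries. Dcn averaged 21.2 and Bgn 22.7 CPM per kb in siSTAT3 libraries, far above Nid1, against 41.6 and 39.7 in siCntrl libraries, where the 3 genes were level. Below these, Tgfbi and Prelp followed in siSTAT3 libraries, at 11.9 and 8.61 CPM per kb, and Sparcl1 followed in siCntrl libraries, at 31.5.

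No member was called in the test of the difference between the arms. The change with mASO STAT3 minus the change with siSTAT3 was called for 0 of 39 members in either direction, as for 0.00636% of all genes higher and 0 lower (edgeR, all 12 libraries). DESeq2 and limma voom gave 0 as well, and at an unadjusted p under 0.05 there were 8 above 0 (Emilin1, Sparcl1, Tnc, Dcn, Thbs2, Hspg2, Tgfbi and Ltbp3) and 0 below. The share of all genes at an unadjusted p is not given, for these counts or for those between loads below. The differences were above 0 for 35 of 39 members, against 48.8% of all genes, with a median of 0.54 beside −0.01 for all genes. Members moved together by library, so they are not separate observations. For 34 of 39 members mASO Scrbl replicate 3 was the highest of its group, and for 27 siCntrl replicate 1 was the lowest. The count of signs is therefore no test of a difference between the arms. The difference was 0.93 ± 0.35 for Dcn, 1.14 ± 0.48 for Thbs2, 1.05 ± 0.44 for Ltbp3 and 0.85 ± 0.38 for Tnc.

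The 2 control loads were set side by side, and so were the 2 STAT3 loads. Between mASO Scrbl and siCntrl libraries 0 members were called, as for 0.0127% of all genes lower and 0 higher; DESeq2 and limma voom also gave 0, and the unadjusted p was under 0.05 for 4 (Fn1, Spon1, Tgfbi and Ltbp3), all lower in mASO Scrbl. The members' median was −0.32 beside 0.01 for all genes, and 33 of 39 lay below 0, against 48.2% of all genes. Here too the members are not separate observations, and the count of signs is no test. Fn1 had −0.45 ± 0.17 and Tgfbi −0.62 ± 0.16, with edgeR adjusted p of 0.575 and 0.411. Tgfbi was the 1 member whose control groups did not overlap, against 5.67% of all genes lower and 6.75% higher in this way. Between mASO STAT3 and siSTAT3 libraries 0 members were called, as for 0 genes of all; DESeq2 and limma voom gave 0, and at an unadjusted p under 0.05 there was 1, Tnc (0.69 ± 0.29, edgeR adjusted p = 0.766). The median there was 0.25 beside 0.00, and 5 members (Tnc, Tgfbi, Dcn, Mfap2 and Ltbp2) were higher in mASO STAT3 without overlap, against 6.04% of all genes, and 0 were lower without overlap, against 5.14%.

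Replicates of a group also differed together for these genes. The member median of the coefficient of variation was 25.5% in siSTAT3, 25.3% in siCntrl, 21.3% in mASO STAT3 and 34.8% in mASO Scrbl libraries. Within siSTAT3, replicate 2 was the lowest for 22 of 39 members, against 38.3% of all tested genes, among them Dcn, Lum and Sparcl1 (12.3 CPM, beside 26.6 and 27.5). Within siCntrl, replicate 1 was the lowest for 27 (35.1% of all genes) and replicate 2 the highest for 22 (31.1%), and within mASO STAT3, replicate 3 was the lowest for 21 (29.7%) and replicate 2 the highest for 25 (33.5%). In mASO Scrbl replicate 3 Mfap4 had 8.47 CPM, beside 1.02 and 2.03 CPM in the other libraries of its group, and Fmod had 8.94 CPM beside 1.94 and 1.79 CPM, whereas Nid1 and Spon2 were lowest there.

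Other matrix genes were counted from wider lists. Their counts are read against the shares of all tested genes, 23.4% lower and 22.4% higher with siSTAT3 and 22.5% lower and 21.3% higher with mASO STAT3, or, under library totals, 46.2% and 10.5% with siSTAT3 and 50.5% and 9.7% with mASO STAT3. The lists share genes: Spp1 is a glycoprotein gene and a macrophage and cholangiocyte marker, Dpt and Mgp are glycoprotein genes and portal fibroblast markers, Reln and Vwf are glycoprotein genes and a stellate and an endothelial marker, and Eln, a member, is a portal fibroblast marker. Of 56 tested glycoprotein genes beside the members, 30 (53.6%) were lower and 7 (12.5%) higher with siSTAT3 (median −1.17), and 25 (44.6%) were lower and 9 (16.1%) higher with mASO STAT3 (median −0.62). Library totals gave 39 lower and 1 higher with siSTAT3, and 34 lower and 4 higher with mASO STAT3. Without mASO Scrbl replicate 3 the mASO arm had 16 lower and 11 higher (median −0.33), against 19.4% and 18.7% of all genes. The summed level of this list overlapped in both arms. It was 4139 to 5406 CPM in siSTAT3 libraries and 4322 to 4626 CPM in siCntrl libraries. In the mASO arm it was 4082 to 4685 CPM with STAT3 and 3230 to 4098 CPM with Scrbl. Ctgf, a matricellular CCN family gene, averaged 3.17 ± 0.575 CPM in siSTAT3 libraries, against 96.9 ± 31.2 CPM in siCntrl libraries, and 5.47 ± 1.05 CPM in mASO STAT3 libraries, against 80.7 ± 35.5 CPM in mASO Scrbl libraries (SD, n = 3 each). Its log2 fold changes were −4.94 ± 0.34 and −3.89 ± 0.32. On the log2 scale Wisp1, of the same family, fell by 4.03 with siSTAT3 and 2.78 with mASO STAT3. Npnt (nephronectin, of basement membranes) had log2 fold changes of −4.58 with siSTAT3 and −4.16 with mASO STAT3, and Svep1, a large adhesion protein, had −2.72 and −2.19.

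Enzymes and chaperones of matrix assembly were lower for 7 of 10 tested genes in both arms, and 1, Bmp1, was higher in each; under library totals none was higher with siSTAT3, and without mASO Scrbl replicate 3 the mASO arm had 6 lower. Lox, the lysyl oxidase that crosslinks elastin and collagen, averaged 0.0616 ± 0.0412 CPM in siSTAT3 libraries, against 13.9 ± 2.48 CPM in siCntrl libraries, and 0.233 ± 0.09997 CPM in mASO STAT3 libraries, against 10.96 ± 4.47 CPM in mASO Scrbl libraries. The fitted log2 fold changes were −7.84 ± 0.48 and −5.58 ± 0.39. Lox was close to the detection limit in siSTAT3 libraries, so the size of that fold change is uncertain. Loxl1, which acts on elastin, fell by 2.84 with siSTAT3 and 1.82 with mASO STAT3, and Serpinh1 and Fkbp10, chaperones of procollagen, by 2.48 and 2.79 with siSTAT3 and by 2.03 and 2.01 with mASO STAT3.

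Among genes that make or carry glycosaminoglycan chains, calls were made in both directions. Of 40 tested synthesis genes, 18 (45%) were lower and 5 (12.5%) higher with siSTAT3. With mASO STAT3, 11 (27.5%, near the 22.5% of all genes) were lower and 3 (7.5%) higher. Scaling by library totals gave 25 lower and 2 higher with siSTAT3, and 23 lower (57.5%, against 50.5% of all genes) and 1 higher with mASO STAT3. With siSTAT3, 3 were higher without siCntrl replicate 2 or 3 or siSTAT3 replicate 1 or 3. Chst11, a chondroitin sulfotransferase, fell by 4.08 with siSTAT3 and 2.82 with mASO STAT3 on the log2 scale, and Chst14, which sulfates dermatan, by 1.88 and 1.39. Hs6st1, a heparan sulfate sulfotransferase, rose by 1.10 with siSTAT3 and 1.35 with mASO STAT3. Of 12 cell surface proteoglycan genes, 3 (25%) were lower and 2 (16.7%) higher with siSTAT3, and 1 (8.33%) was lower and 3 (25%) higher with mASO STAT3, shares that in 3 of these 4 counts lie near those of all genes. Under library totals 6 were lower and 0 higher with siSTAT3, and 2 lower and 1 higher with mASO STAT3. The summed level of the cell surface list was higher without overlap in both arms. It was 1033 to 1104 CPM in siSTAT3 libraries, against 775 to 993 CPM in siCntrl libraries. In the mASO arm it was 954 to 1239 CPM with STAT3, against 636 to 772 CPM with Scrbl. Cd44, the hyaluronan receptor, fell by 1.90 with siSTAT3 and 1.44 with mASO STAT3, and Sdc2 (syndecan-2) rose by 0.57 and 0.90. Of 10 other secreted proteoglycan genes, 5 were lower (3 without siCntrl replicate 1 or 3) and 1 higher with siSTAT3, and 4 were lower and 2 higher with mASO STAT3. Srgn (serglycin, of blood cell granules) fell by 1.71 with siSTAT3 and 1.11 with mASO STAT3, whereas Podn (podocan, an SLRP) rose by 1.07 and 1.48. The summed level of the other secreted proteoglycans was lower without overlap in both arms. It was 91.4 to 96.2 CPM in siSTAT3 libraries, against 178 to 238 CPM in siCntrl libraries. In the mASO arm it was 91.3 to 106 CPM with STAT3, against 148 to 188 CPM with Scrbl.

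Cell type markers changed in the same livers. Of 10 stellate cell and myofibroblast markers, 6 (60%) were lower and 2 (20%) higher with siSTAT3, and 4 (40%) were lower and 3 (30%) higher with mASO STAT3, against the shares of all genes given above. Under library totals 6 were lower and 0 higher with siSTAT3. With mASO STAT3 library totals gave 5 (50%) lower, against 50.5% of all genes, and 2 higher. The median log2 fold change of these markers was −0.92 with siSTAT3 and −0.11 with mASO STAT3, beside −0.04 and −0.05 for all genes. Without mASO Scrbl replicate 3 the mASO median was 0.15. The summed level of these markers was 179 to 204 CPM in siSTAT3 libraries, against 496 to 617 CPM in siCntrl libraries, and 190.4 to 265 CPM in mASO STAT3 libraries, against 391 to 596 CPM in mASO Scrbl libraries. Acta2, the smooth muscle actin of myofibroblasts, averaged 1.09 ± 0.0616 CPM in siSTAT3 libraries, against 115 ± 29.9 CPM in siCntrl libraries, and 1.38 ± 0.397 CPM in mASO STAT3 libraries, against 120 ± 25.0 CPM in mASO Scrbl libraries (SD, n = 3 each). Lrat, which stores retinoid in stellate cells, did not follow: its log2 fold change was 0.40 ± 0.23 with siSTAT3 (edgeR adjusted p = 0.162) and 1.15 ± 0.23 with mASO STAT3 (edgeR adjusted p = 0.00109). No marker of this list was at 0 in a whole group, and the part of cell numbers in the matrix results was not tested.

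Hepatocyte markers were higher, 6 of 9 with siSTAT3 and 7 of 9 with mASO STAT3, and 0 were lower. Under library totals 3 were higher in each arm, and 1 was lower with siSTAT3. The summed level of hepatocyte markers was 126048 to 137823 CPM in siSTAT3 libraries, against 50781 to 89947 CPM in siCntrl libraries, and 110735 to 149680 CPM in mASO STAT3 libraries, against 57557 to 86933 CPM in mASO Scrbl libraries. Portal fibroblast markers were lower for 5 of 10 and higher for 1 with siSTAT3 (summed level 77.8 to 88.0 CPM, against 101 to 193 CPM in siCntrl libraries), and lower for 2 and higher for 1 with mASO STAT3 (77.9 to 105 CPM, against 76.4 to 162 CPM in mASO Scrbl libraries). The 20% lower in the mASO arm is near the 22.5% of all genes, and library totals gave 4 lower there, against 50.5%. Macrophage markers were lower for 6 of 10 with siSTAT3 (476 to 577 CPM, against 1135 to 2223 CPM in siCntrl libraries). With mASO STAT3 they were lower for 3 and higher for 1 (495 to 548 CPM, against 924 to 1802 CPM in mASO Scrbl libraries). Library totals gave 5 lower in the mASO arm, against 50.5% of all genes. The median log2 fold change of macrophage markers was −1.14 with siSTAT3 and −0.35 with mASO STAT3. It was −0.16 in the mASO arm without mASO Scrbl replicate 3. Spp1 is in this sum and in the cholangiocyte sum below, so these sums are not separate observations.

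Cholangiocyte markers were lower for 4 of 6 with siSTAT3 and 3 of 6 with mASO STAT3, with median log2 fold changes of −1.60 and −0.72. Without mASO Scrbl replicate 3 the mASO arm had 2 lower and a median of −0.51. Their summed level, in which abundant genes weigh more, was 82.1 to 133 CPM in siSTAT3 libraries, against 541 to 1377 CPM in siCntrl libraries. It was 68.0 to 94.1 CPM in mASO STAT3 libraries, against 582 to 1322 CPM in mASO Scrbl libraries. Endothelial markers were lower for 6 of 10 with siSTAT3, and for 4 with 1 higher with mASO STAT3 (123 to 226 CPM in siSTAT3 libraries, against 205 to 251 CPM in siCntrl libraries; 139.6 to 239 CPM in mASO STAT3 libraries, against 194 to 237 CPM in mASO Scrbl libraries). The count for mASO STAT3 was 2 without mASO STAT3 replicate 1 or 3 or mASO Scrbl replicate 1 or 3. Smooth muscle markers were lower for 5 of 6 with siSTAT3 and 4 of 6 with mASO STAT3, with median log2 fold changes of −2.12 and −2.05. Without mASO Scrbl replicate 3 the mASO arm had 4 lower and a median of −1.84. The sums of these markers, in which abundant genes weigh more, overlapped. They were 68.9 to 104 CPM in siSTAT3 libraries, against 99.9 to 110.3 CPM in siCntrl libraries. In the mASO arm they were 84.2 to 100.3 CPM with STAT3, against 75.2 to 139 CPM with Scrbl. Mesothelial markers were lower for 1 of 6 with siSTAT3, and for 6 without siSTAT3 replicate 1, and none was called with mASO STAT3 (3.32 to 34.1 CPM in siSTAT3 libraries, against 19.6 to 62.5 CPM in siCntrl libraries; 8.98 to 29.0 CPM in mASO STAT3 libraries, against 16.7 to 28.0 CPM in mASO Scrbl libraries). Platelet markers, of which 3 of 6 could be tested, were lower for 1 in each arm, which was Pf4, and summed to at most 15.5 CPM in any library; Gp6 was at 0 in all mASO STAT3 libraries. The part of these cells in the matrix results was not tested.

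**Figure D4:**
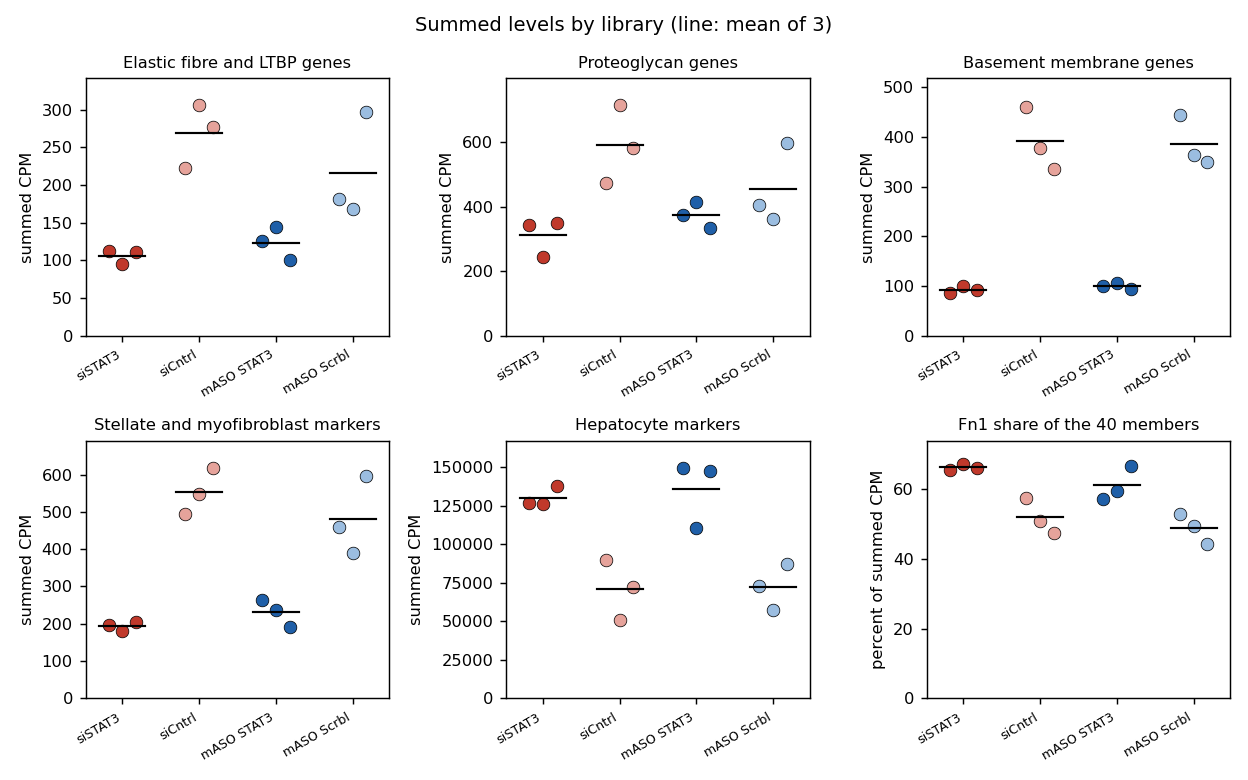
Summed CPM (vertical axes from 0) of 3 role classes and of 2 marker lists, and the Fn1 share of the members' summed CPM in percent, in each library, with a line at the mean of 3. The basement membrane sum is 85.9 to 105 CPM in the STAT3 libraries and 336 to 461 CPM in the controls, the proteoglycan sums of the mASO groups overlap, the stellate and myofibroblast sums are lower and the hepatocyte sums higher in the STAT3 libraries.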

How the data were processed

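Polyadenylated liver RNA was sequenced in 12 libraries from a stranded kit, per the labels' protocols. The authors deposited whole-number counts per gene symbol, with no normalization. The submitters' processing notes name TopHat and Cufflinks and give neither a version nor what each did. The counting tool, its strand setting, the annotation and the build were not given in the sources used here. The authors also deposited a normalized table, which was not used.

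The 12 libraries were fitted together in edgeR (4.0.16, under R 4.3.3) with 4 group means, TMM factors, its low-count filter by group (minimum count 10, minimum total 15) and the robust quasi-likelihood test. This tested 15720 genes, removed 9820, and left 8 residual degrees of freedom at a biological coefficient of variation of 0.247. Adjusted p-values are Benjamini-Hochberg over all tested genes, called under 0.05. Standard errors were derived from the F statistic, as the absolute log2 fold change over the root of F. The contrasts were siSTAT3 with siCntrl, mASO STAT3 with mASO Scrbl, the second of these changes minus the first, mASO Scrbl with siCntrl, and mASO STAT3 with siSTAT3. Libraries of a group differed by more than counting error, with chi-square per degree of freedom between them of 52.6 to 222. This does not show whether they came from separate animals. Levels per kb use the union of exons in GENCODE M21. The script was tested on simulated data in which few genes changed, so that run does not test the choice of scaling. Alternatives were DESeq2 (1.42.0) size factors and Wald test, limma voom (3.58.1), library totals, no filter or a stricter filter, the compared libraries alone, a replicate block, and leaving out each library.

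The members and all gene lists were chosen with earlier results of these data known. Any member could be named; values per library were printed for, in each role and arm, the called members with the lowest and highest log2 fold change and for Fn1, and for others (among them Tnc, Dcn, Eln, Fbn1, Sparc, Postn, Ltbp2, Thbs2, Fbln5 and Nid2) chosen after their values were seen. From each other list up to 4 genes with the smallest p in the siRNA arm could be named; Acta2 and Lrat are marker genes, and Bmp1, Gp6 and Lrat were chosen after their values were seen. Promoters could be shown only for genes in the RefSeq table. Of the listed genes, Kera, Spock1 and Tf were not matched, and Adgre1 was read under its older symbol Emr1.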

Additional observations from a re-analysis of the deposited data

How the results depend on the processing

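No member called in an arm changed direction under any alternative; the 30 reversals, in 14 genes, were of results without a call in that arm, at most 0.749 from 0. Scaling by library totals raised the lower members to 34 with siSTAT3 and 27 with mASO STAT3, and the higher ones with mASO STAT3 were 0; fitting the compared libraries alone gave 2 higher (Tgfbi and Efemp1). Leaving out 1 library gave 25 to 30 lower with siSTAT3, and 16 to 23 lower and 1 to 3 higher with mASO STAT3; 0 members were called in the other comparisons. Deviations of same-numbered libraries had correlations of −0.156 to 0.296 in the siRNA arm and −0.141 to −0.020 in the mASO arm. Over all pairs of groups they were −0.404 to 0.296. Same-numbered libraries did not deviate together in both arms, so the numbers were not taken as pairs. The replicate block gave 27 lower with siSTAT3, and 19 lower (Fbn2 and Lum lost) and 1 higher with mASO STAT3.

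The reversed values follow. Library totals gave −0.12 for Fbln5 and −0.078 for Efemp1 in the siRNA arm, and −0.13 for Fbln5 and −0.44 for Prelp in the mASO arm. Limma voom gave 0.0018 for Thbs3 (siRNA), and 0.039 for Ogn and 0.10 for Ltbp3 (mASO). Ltbp3 (mASO) was 0.0149 with DESeq2 size factors, 0.0146 with DESeq2 and 0.064 with the replicate block. Over single libraries left out, values ran in the siRNA arm from −0.011 to 0.76 for Efemp1, −0.14 to 0.13 for Thbs3 and −0.25 to 0.10 for Tgfbi, and in the mASO arm from −0.55 to 0.34 for Fbln1, −1.32 to 0.058 for Mfap2, −1.23 to 0.55 for Mfap4, −0.12 to 0.068 for Dcn, −1.53 to 0.015 for Fmod, −0.64 to 0.75 for Ogn, −0.064 to 0.28 for Prelp, −0.34 to 0.37 for Thbs2, −0.22 to 0.48 for Ltbp3 and −0.31 to 0.027 for Ltbp4. The cause was not tested. Hepatocyte markers called higher numbered 3 in each arm under library totals, with 1 called lower with siSTAT3. Smooth muscle markers called lower numbered 3 with siSTAT3 under the stricter filter, which tests fewer genes. Over the alternatives of all member results, a call was kept in 943 and lost in 33, and a result without a call stayed so in 517, gained one in 29 and changed sign in 30. Low counts limit Fbn2, Aspn and Mfap5, and 3 libraries per group limit every comparison. Low counts in the STAT3 libraries also limit the size of the Vcan fold changes, and that of Lox with siSTAT3. Over single libraries left out, the log2 fold change of Vcan ran from −8.48 to −6.27 with siSTAT3. With mASO STAT3 it ran from −5.87 to −5.05.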
